A study of Mus musculus with 6 samples.

Results

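The genes examined were 10 that encode leukocyte integrin chains and an integrin ligand: 5 alpha chains (Itga4, Itga5, Itgal, Itgav, Itgax), 4 beta chains (Itgb1, Itgb2, Itgb3, Itgb5) and Icam1. They were taken by gene name from a deposited table of 54532 mouse genes, all 10 were found, and 9 passed a filter on low values. RNA-seq had been done on mouse bone marrow-derived macrophages, primary cells differentiated from marrow, labelled NSUN2-KO (3 libraries) or NC (3 libraries). Both groups had been polarized towards the inflammatory M1 state with LPS and IFN-γ, so stimulation is common to all 6 libraries and no unstimulated cells were analysed here. NSUN2 is an RNA cytosine methyltransferase. The labels state neither how the knockout was made nor what NC denotes, and give no strain, age, time of stimulation or animal for a library. The design text calls the libraries biological replicates, with no record of the animals, so p-values measure the spread between these samples. The question was how the transcripts of these adhesion receptors differed between NSUN2-KO and NC macrophages after M1 polarization.

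Integrins are cell-surface receptors, each a pair of an alpha and a beta chain, that join a leukocyte to other cells or to matrix and signal in both directions across the membrane. The chain a cell makes sets which pairs it can form. The β2 chain pairs with the leukocyte alpha chains encoded by Itgal, Itgam, Itgax and Itgad, and the resulting receptors bind ICAM1, complement fragments and fibrinogen. The β1 chain pairs with many alpha chains to bind fibronectin, VCAM1 and other matrix proteins, and αv with its several beta chains binds RGD-containing proteins such as vitronectin and takes part in uptake of apoptotic cells. Icam1 is a classical target of NF-κB and of interferon-γ signalling, and both stimuli used here raise it in macrophages.

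Promoter sequences are shown first for 4 genes, Icam1 as the stimulus-responsive ligand gene and Itgav, Itgb1 and Itgb5 as the genes of αv and its main beta partners, to show what lies directly before each start site. Sequences are from RefSeq (GRCm38.p6), 250 bases before the gene's RefSeq start, 5′ to 3′ on the gene's plus strand. They were found for 7 of the 10 genes (not Itgal, Itgb2 or Itgb3). Capitals mark the matches to 5 motifs searched on both strands: NF-κB-type GGAANTTCC, interferon-γ-activated-site type TTCNNNGAA, AP-1-type TGANTCA, the GC box GGGCGG and ETS-type GAGGAAG.
Icam1 chr9:21015690-21015939: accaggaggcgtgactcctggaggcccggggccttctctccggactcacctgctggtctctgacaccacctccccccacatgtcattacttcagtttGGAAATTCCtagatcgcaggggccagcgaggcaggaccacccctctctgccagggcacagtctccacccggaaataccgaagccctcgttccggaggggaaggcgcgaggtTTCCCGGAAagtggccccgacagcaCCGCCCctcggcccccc
Itgav chr2:83724147-83724396: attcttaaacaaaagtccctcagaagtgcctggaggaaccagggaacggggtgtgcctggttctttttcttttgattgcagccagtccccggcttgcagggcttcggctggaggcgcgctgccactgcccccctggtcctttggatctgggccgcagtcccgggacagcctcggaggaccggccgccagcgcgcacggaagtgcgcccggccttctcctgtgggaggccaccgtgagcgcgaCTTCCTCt
Itgb1 chr8:128685404-128685653: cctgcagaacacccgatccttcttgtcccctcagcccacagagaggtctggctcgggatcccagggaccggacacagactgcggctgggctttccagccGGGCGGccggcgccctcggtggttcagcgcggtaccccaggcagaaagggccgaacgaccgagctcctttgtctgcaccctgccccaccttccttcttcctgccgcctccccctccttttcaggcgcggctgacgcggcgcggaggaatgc
Itgb5 chr16:33829415-33829664: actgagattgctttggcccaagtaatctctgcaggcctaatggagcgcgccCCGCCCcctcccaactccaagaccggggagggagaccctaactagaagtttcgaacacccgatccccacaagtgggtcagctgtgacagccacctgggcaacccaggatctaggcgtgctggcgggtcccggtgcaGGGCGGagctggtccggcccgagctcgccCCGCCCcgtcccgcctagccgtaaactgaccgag
The Icam1 window held an NF-κB-type match (GGAAATTCC, positions -153 to -145 from the start), a motif present in 0.813% of 32851 promoters of this length. It also held a match of the interferon-γ type (TTCCCGGAA, -42 to -34), which 7.02% of promoters hold. Of the 7 windows, Icam1's alone held either motif. The Itgav window held an ETS-type match at -8 to -2 (10.6% of promoters), Itgb1 a GC box at -151 to -146 and Itgb5 3 GC boxes (32.7% of promoters hold at least 1). An AP-1-type match (6.75% of promoters) was found in Itgax at -56 to -50. None of the matches overlapped another, and a match describes the letters only.

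Levels are FPKM, fragments per kilobase of gene scaled to the size of the library. The length is given per gene, not per expressed transcript, so levels of different genes can be compared only roughly. The level ran from 430.0 ± 10.8 (SD, n = 3) for Itgb2 to 0.906 ± 0.198 for Itgb3 in NC. The order was the same in both groups: Itgb2, Itga5, Itgb1, Icam1, Itgal, Itgav, Itgb5, Itga4, Itgax, Itgb3. Neighbours in this order did not overlap in either group, except Itgax and Itgb3. Itgb2 stood above 99.0% of the 9443 genes tested and Itgax above 2.57% of them. The 6 libraries held 35019033 to 45636131 reads, recovered from the FPKM values and gene lengths, so that 10 genes were read at between 155 reads (Itgb3, lowest library) and 61513 reads (Itgb2, highest library).

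**Figure D1:**
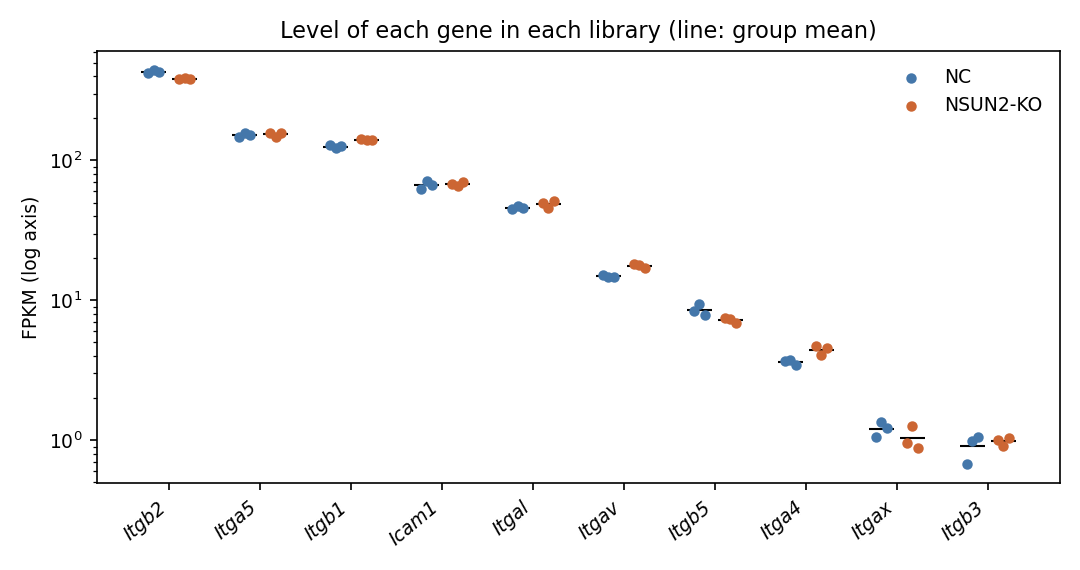
FPKM (log axis) of each of the 10 genes in each of the 6 libraries, NC in blue and NSUN2-KO in orange, with a line at each group mean. Levels fall from 430.0 for Itgb2 to 0.906 for Itgb3 in NC, and the groups are apart for Itgb2, Itgb1, Itgav, Itgb5 and Itga4.

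In the knockout libraries Itgav and Itgb1, chains of matrix-binding integrins, rose and Itgb2, the common chain of the leukocyte integrins, fell. The changes were small, with mean levels 18.6% and 11.4% higher for Itgav and Itgb1 and at 89.0% of NC for Itgb2. The other 6 tested genes did not pass the test. Among them were Icam1, the matrix-binding chains Itga5 and Itgb5, and Itgal, a partner of Itgb2. Of 9 tested genes, 2 were called higher and 1 lower at an adjusted p below 0.05 (limma on log2(FPKM + 1), Benjamini-Hochberg over all tested genes), where 4.19% of all tested genes were called higher and 4.3% lower, 8.49% in either direction. The 3 values of each group lay apart for 5 of the 9, against 31.1% of all tested genes. The median log2 fold change of the 9 genes was 0.04, and -0.01 over all tested genes. Their median absolute log2 change was 0.15, against 0.08 over all tested genes and 0.27 over the 802 called ones.

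**Figure D2:**
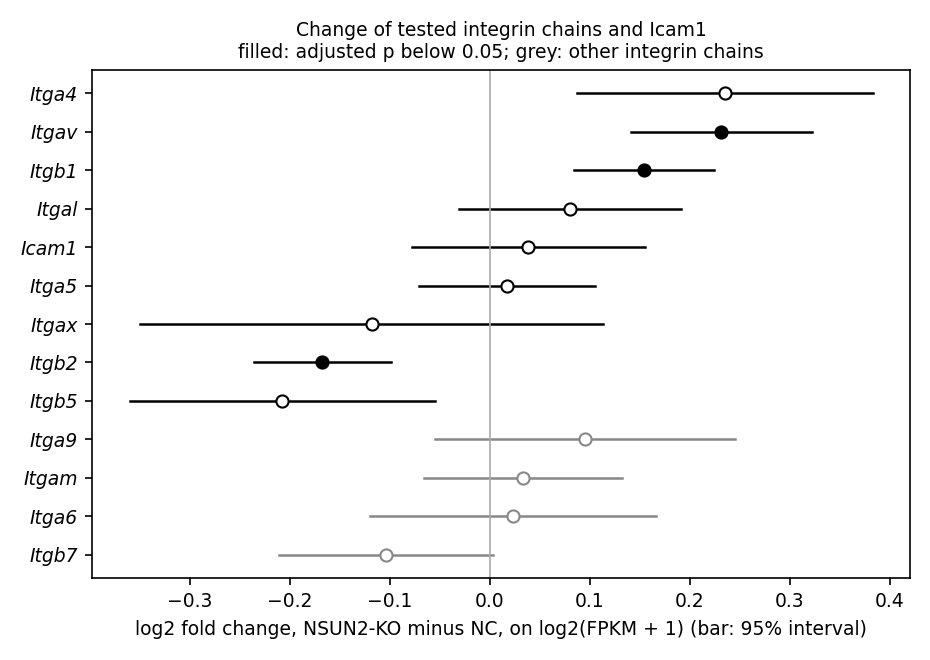
Difference of mean log2(FPKM + 1) between the groups (NSUN2-KO minus NC) with its 95% limma interval, for the 9 tested genes (black) and the other tested integrin chains (grey). Filled points, Itgav (0.23), Itgb1 (0.15) and Itgb2 (-0.17), passed an adjusted p of 0.05.

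Some facts of the libraries bear on every value. Nsun2 fell from 1.92 ± 0.11 to 1.06 ± 0.26 FPKM, 55.4% of NC (log2 fold change -0.51, adjusted p = 0.0228, limma), and lost the call when any library but NSUN2-KO replicate 2 was left out (adjusted p = 0.0534 to 0.0845). Tent4a overlaps Nsun2 by 872 bases on the opposite strand. It had up to 2245 reads in a library, against 186 to 535 for Nsun2, and the strand setting of the counting was not given. The Y-linked Ddx3y, Eif2s3y, Uty and Kdm5d had 0 reads in each NSUN2-KO library and were present in each NC library, while Xist rose from 14.5 ± 0.88 to 30.6 ± 1.20 FPKM. The groups therefore also differed in sex-linked transcripts, and this and the knockout cannot be told apart. Each NC library held both Y-linked transcripts and Xist, and whether it came from cells of both sexes was not tested. Macrophage markers were high throughout, with 9 of 9 tested, and summed to 3954 to 4041 in NC and 3390 to 3428 FPKM in NSUN2-KO. Without Lyz2 the other 8 summed to 2246 to 2276 in NC and 2213 to 2266 FPKM in NSUN2-KO. T and NK cell markers summed to at most 0.253 FPKM and B cell markers to at most 0.400 FPKM in any library. In such bulk samples fewer cells of a type and less RNA per cell cannot be told apart.

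The β2 chain had the highest level of the 10 genes. Itgb2 (ENSMUSG00000000290, chr10:77530252-77565708 in GRCm38, plus strand) encodes CD18, the beta chain on which surface expression of all its alpha partners depends. Its level was 418.7, 440.2 and 431.3 in NC and 382.0, 387.1 and 379.1 FPKM in NSUN2-KO. Every NSUN2-KO library lay below every NC library, and the knockout values were closer together than the NC values. The log2 fold change was -0.17 (SE 0.030, 95% interval -0.24 to -0.10, adjusted p = 0.0156, limma), with the lower direction in 3 of 3 NSUN2-KO libraries. The call did not hold without NC replicate 2 (adjusted p = 0.0530), NC replicate 3 (0.0756) or NSUN2-KO replicate 1 (0.0750). It was also lost with no filter on low values (0.0741) and with no mean-variance trend (0.0635), at the same log2 fold change.

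Itgal (ENSMUSG00000030830, chr7:127296260-127335138, plus strand) encodes CD11a, the partner of β2 in the ICAM1 receptor LFA-1. It was measured at 44.9, 47.5 and 45.5 in NC and at 49.3, 45.6 and 51.3 FPKM in NSUN2-KO. NSUN2-KO replicate 2 fell within the NC range. Its log2 fold change was 0.08 (95% interval -0.03 to 0.19, adjusted p = 0.346, limma). Itgax (ENSMUSG00000030789, chr7:128129547-128150657, plus strand) encodes CD11c, which marks dendritic cells and some macrophages. It was low in all libraries, at 1.04, 1.35 and 1.21 in NC and 0.958, 1.26 and 0.876 FPKM in NSUN2-KO, from 158 to 297 reads. The groups overlapped, and the interval of its log2 fold change, -0.35 to 0.11, left a fall or a small rise possible at this depth (adjusted p = 0.510, limma).

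The α partners of β2 lie in a cluster of 928 kb on chromosome 7 (chr7:127296260-128223816). Its other 2 genes are Itgam, encoding CD11b, and Itgad, encoding CD11d. Itgam was at 105.7 ± 3.42 in NC and 108.2 ± 5.16 FPKM in NSUN2-KO (log2 fold change 0.03, adjusted p = 0.681, limma), and Itgad was at most 0.0115 FPKM. Summed over the 4 partners, the level was 152.8 ± 1.94 in NC and 157.9 ± 2.91 FPKM in NSUN2-KO. The partner sum divided by Itgb2 was 0.370, 0.343 and 0.354 in NC and 0.419, 0.411 and 0.408 in NSUN2-KO. By FPKM the β2 transcript thus exceeded its partners in every library, and by less in the knockout. Itgam made up 69.1% ± 1.37 of the partner sum in NC and 68.5% ± 2.17 in NSUN2-KO, and Itgal 30.1% ± 1.27 and 30.9% ± 2.28 (exact two-sided permutation p = 0.7 each). Itgax contributed 0.788% ± 0.11 and 0.653% ± 0.12 (exact permutation p = 0.3). Without NSUN2-KO replicate 3 the differences of the Itgal and Itgam shares changed sign (-0.385 and 0.475 percentage points). Itgal and Itgam together held nearly all of the sum, so their shares mirror each other.

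**Figure D3:**
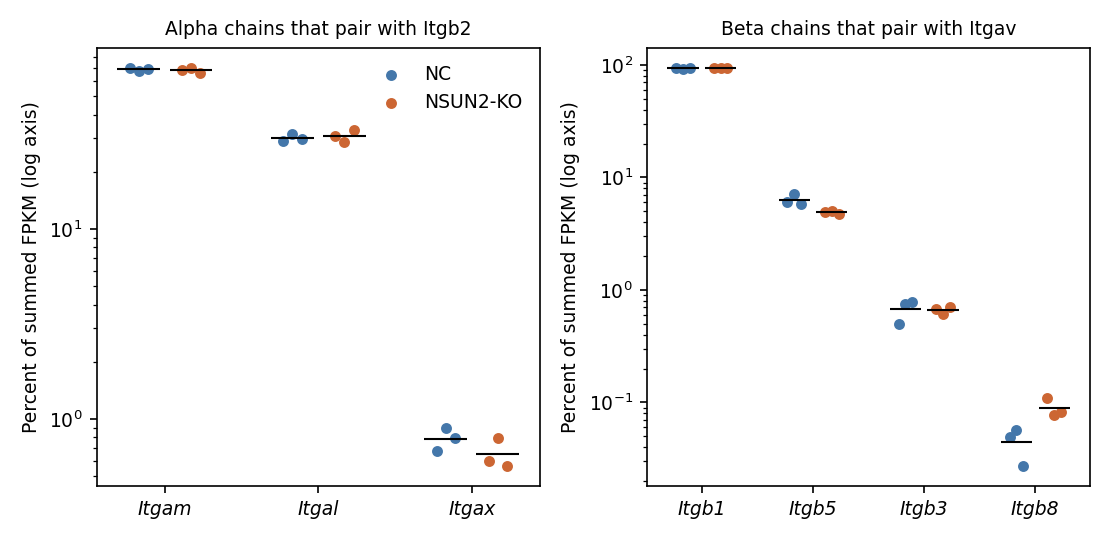
Percent of summed FPKM (log axes) held by each alpha chain that pairs with β2 (left) and each beta chain that pairs with αv (right), by library, with a line at each group mean. Chains with a value of 0 in some libraries (Itgad, Itgb6) are not drawn. The Itgam and Itgal shares overlap between groups, while Itgb5 lies lower in NSUN2-KO (4.88% against 6.32%).

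The β1 and αv chains moved the other way from β2. Itgb1 (ENSMUSG00000025809, chr8:128685654-128733200, plus strand) encodes CD29, the beta chain of most matrix-binding integrins. Its values were 128.6, 122.1 and 126.2 in NC and 141.4, 139.3 and 139.0 FPKM in NSUN2-KO. All 3 NSUN2-KO libraries were above all NC libraries. The log2 fold change was 0.15 (SE 0.030, 95% interval 0.08 to 0.22, adjusted p = 0.0228, limma). The call was lost without NC replicate 2 (adjusted p = 0.0705), NC replicate 3 (0.0844), either of NSUN2-KO replicates 1 (0.1002) and 2 (0.0529). No filter (0.0659) and no mean-variance trend (0.0785) also ended it. The ratio of Itgb1 to Itgb2 was 0.307, 0.277 and 0.293 in NC and 0.370, 0.360 and 0.367 in NSUN2-KO. That the ratio did not overlap follows from the separate genes, Itgb1 being higher and Itgb2 lower in every NSUN2-KO library.

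Itgav (ENSMUSG00000027087, chr2:83724397-83806916, plus strand) encodes the αv chain, CD51. It measured 15.2, 14.7 and 14.8 in NC and 18.1, 17.8 and 17.1 FPKM in NSUN2-KO. The groups were well apart and each was tight (SD 0.29 and 0.53 FPKM). This gave a log2 fold change of 0.23 (SE 0.039, 95% interval 0.14 to 0.32, adjusted p = 0.0134, limma). Without NC replicate 2, NC replicate 3 or NSUN2-KO replicate 1 the adjusted p was 0.0511, 0.0612 and 0.0656.

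Itga4 (ENSMUSG00000027009, chr2:79255426-79333123, plus strand) encodes CD49d, which pairs with β1 in the VCAM1 receptor VLA-4 and with β7. Its levels were 3.66, 3.73 and 3.46 in NC and 4.72, 4.05 and 4.55 FPKM in NSUN2-KO. The groups did not overlap, and NSUN2-KO replicate 2 was nearest to NC. With a log2 fold change of 0.24 (SE 0.064, 95% interval 0.09 to 0.38) it did not pass the test (adjusted p = 0.0644, limma). It passed with limma voom on the recovered reads (log2 fold change 0.30, adjusted p = 0.00225), where 14.5% of genes were called, and among protein-coding genes only (0.0388) or without NSUN2-KO replicate 2 (0.0469). Cerkl overlaps Itga4 on the opposite strand and had at most 48 reads in a library, against 1894 to 2654 for Itga4.

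Itga5 (ENSMUSG00000000555, chr15:103344286-103366763, minus strand) encodes CD49e, the alpha chain of the fibronectin receptor with β1. The values were 147.9, 156.9 and 153.1 in NC and 157.8, 147.8 and 158.0 FPKM in NSUN2-KO. The groups overlapped, with NSUN2-KO replicate 2 at the level of the lowest NC library. Its log2 fold change was 0.02 with a 95% interval of -0.07 to 0.11 (adjusted p = 0.820, limma), and its sign turned without NC replicate 1 (-0.01). In the ratio of Itga5 to Itgb1, NC was at 1.22 ± 0.068 and NSUN2-KO at 1.10 ± 0.039.

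The remaining beta chains pair with αv. Itgb5 (ENSMUSG00000022817, chr16:33829665-33949338, plus strand) encodes β5, a vitronectin-binding partner of αv. It was measured at 8.38, 9.37 and 7.83 in NC and at 7.42, 7.39 and 6.89 FPKM in NSUN2-KO. Every NSUN2-KO library was below every NC library, with NC replicate 2 the highest. The log2 fold change of -0.21 (SE 0.066, 95% interval -0.36 to -0.05) did not pass the test (adjusted p = 0.0975, limma), but did with limma voom (-0.24, adjusted p = 0.0408). Itgb3 (ENSMUSG00000020689, chr11:104608000-104670476, plus strand) encodes β3, known from platelets and osteoclasts. It was listed at 0.680, 0.992 and 1.05 in NC and 1.01, 0.908 and 1.04 FPKM in NSUN2-KO, from 155 to 268 reads. Its mean of 0.946 FPKM was just under the filter of 1 FPKM, so it was not tested in the main fit. The groups overlapped, and with no filter its log2 fold change was 0.06 (adjusted p = 0.824, limma).

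Among the beta partners of αv, Itgb1 made up 93.0% ± 0.74 of the summed in NC and 94.3% ± 0.15 in NSUN2-KO, a difference of 1.39 percentage points. Itgb5 made up 6.32% ± 0.67 and 4.88% ± 0.17, a difference of -1.44 points. The groups did not overlap for either share, and the exact two-sided permutation p of 0.1 is the smallest that 3 against 3 libraries can give (0.3 after adjustment over the 9 shares compared). Itgb1 and Itgb5 together held nearly all of the sum, so their shares mirror each other and are not separate results. Itgb3 held 0.672% ± 0.16 and 0.665% ± 0.047 (exact permutation p = 1). Itgb8, low throughout, held 0.0444% ± 0.015 and 0.0894% ± 0.018 (exact permutation p = 0.1). The level of Itgav divided by that of Itgb5 was 1.82, 1.57 and 1.89 in NC and 2.44, 2.41 and 2.48 in NSUN2-KO. With Itgav higher and Itgb5 lower in every NSUN2-KO library, this ratio could only rise. The shares above are of transcript, and β1 also pairs with other alpha chains.

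Icam1 (ENSMUSG00000037405, chr9:21015985-21028817, plus strand) encodes the ligand of the β2 integrins on leukocytes and endothelium, and its promoter carried the matches shown above. It was at 62.2, 70.8 and 66.3 in NC and 68.2, 65.9 and 70.4 FPKM in NSUN2-KO, from 10080 to 14125 reads. The NSUN2-KO values lay within the NC range. The log2 fold change was 0.04 (SE 0.050, 95% interval -0.08 to 0.16, adjusted p = 0.683, limma), and without NC replicate 1 it was -0.01. A p that misses the threshold does not show that Icam1 was equal in the groups, and the interval bounds the difference these libraries allow.

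GC content ran with the direction of change. Across all tested genes the log2 fold change and the GC content of the longest annotated transcript had a Spearman correlation of -0.374, a value across genes, which are not independent and share the 6 libraries. Genes called higher had a median GC content of 46.2% and genes called lower 53.9%, against 49.2% of all tested genes. Itga4 (41.1%), Itgav (43.5%) and Itgb1 (44.8%) had the lowest GC content of the 10 genes, and Itgb2 had 53.1% and Itgb5 57.0%. Itgal (53.2%), Icam1 (55.4%) and Itga5 (57.3%) did not follow this trend. Their GC content was above that of Itgb2, and their log2 fold changes were slightly above 0 (0.08, 0.04 and 0.02). After the dependence on GC content and length was taken out within each library, the 3 calls held: log2 fold changes were 0.19 for Itgav (adjusted p = 0.0144), 0.13 for Itgb1 (0.0147) and -0.12 for Itgb2 (0.0123, limma). Icam1 (0.11, adjusted p = 0.122) and Itga5 (0.09, adjusted p = 0.0516) remained uncalled in that fit, as did Itga4 (0.17, adjusted p = 0.143) and Itgb5 (-0.13, adjusted p = 0.253).

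**Figure D4:**
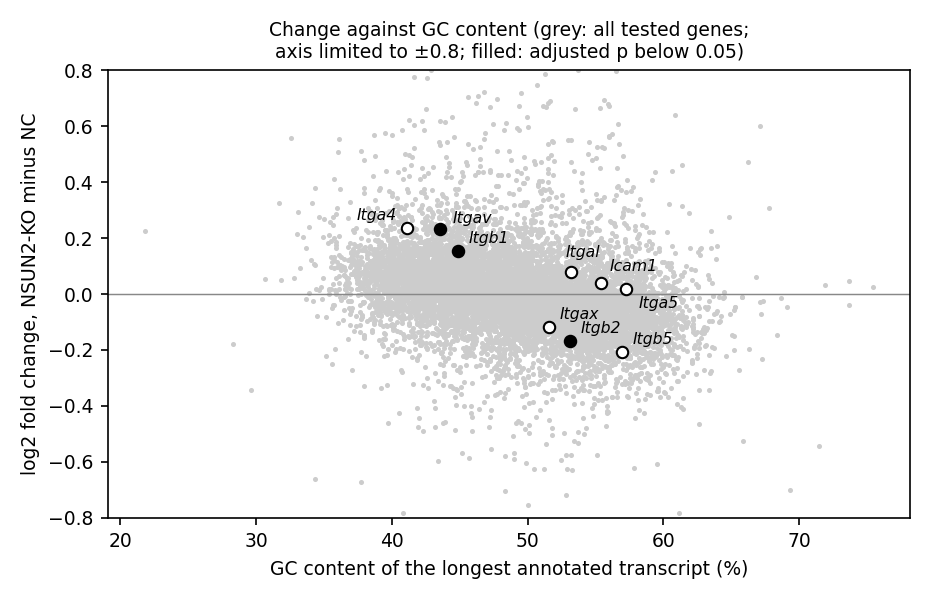
Log2 fold change, NSUN2-KO minus NC, against GC content (percent) of the longest annotated transcript for the 9 tested genes (named, filled where called) over all tested genes (grey, axis limited to ±0.8). Itga4, Itgav and Itgb1, at 41.1% to 44.8%, lie above 0 and Itgb2 and Itgb5, at 53.1% and 57.0%, below. Itgal, Icam1 and Itga5, at 53.2% to 57.3%, lie slightly above 0.

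For each called gene, the protein-coding genes with the most similar profile were taken by the root mean square difference of centred log2(FPKM + 1) over the 6 libraries. Wsb1 (0.0158) and Acod1 (0.0187) were nearest to Itgav, where the median over the 8520 genes compared was 0.143. Olfr56 (0.0123) was among the nearest to Itgb1, against a median of 0.112. Mtch1 (0.00929) and Ptpn7 (0.0120) were nearest to Itgb2, against a median of 0.109. The smallest of 8520 differences lies below their median by construction. Genes with a similar difference between the groups are near by this measure, and shared regulation was not tested.

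The other 18 integrin chains gave no call, and 14 of them lay under the filter. Of the 18, 4 were tested (Itgam, Itgb7, Itga6 and Itga9), with 0 called by limma, 0 at an unadjusted p under 0.05 and 0 by limma voom. Over all tested genes 8.49% were called by limma, a share from which 0 of 4 cannot be told apart. Itgb7, the β7 chain that pairs with α4, was at 69.0 ± 3.70 in NC and 64.1 ± 2.30 FPKM in NSUN2-KO (log2 fold change -0.10, adjusted p = 0.211, limma). The laminin-binding chain Itga6 (0.02, adjusted p = 0.856) and Itga9 (0.10, adjusted p = 0.409) were also uncalled.

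Of 24 other integrin ligands 6 were tested, 1 was called higher and 0 lower, with a median log2 fold change of 0.00. This was 16.7% of those tested, against 8.49% of all tested genes. The riser was Thbs1, a secreted matricellular protein that binds integrins and CD47, at 635.3, 653.8 and 625.2 in NC and 756.2, 740.1 and 765.9 FPKM in NSUN2-KO. All NSUN2-KO libraries were above all NC libraries (log2 fold change 0.24, adjusted p = 0.00383, limma). Spp1 (osteopontin, an αv and β1 ligand) was at 253.0 ± 1.31 and 232.7 ± 12.9 FPKM (adjusted p = 0.117). Mfge8, which bridges apoptotic cells to αv integrins, was at 3.74 ± 0.24 and 3.11 ± 0.028 FPKM (adjusted p = 0.0743). Cd47 (log2 fold change 0.10, adjusted p = 0.113) and Adam15 (-0.10, adjusted p = 0.267) did not pass either. Every NSUN2-KO library lay below every NC library for Spp1 and Mfge8, and above for Thbs1 and Cd47. The groups lay apart in either direction for 31.1% of all tested genes.

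Integrin activators and regulators, which control the switch between inactive and binding forms, had 20 of 25 genes tested, 1 called higher and 3 lower (median log2 fold change -0.03). The share called was 20%, against 8.49% of all tested genes. Cytip, which binds cytohesin and restrains β2 integrin adhesion, rose from 5.97 ± 0.20 to 7.70 ± 0.26 FPKM (0.32, adjusted p = 0.00859, limma). Fermt3, the kindlin-3 that activates leukocyte integrins, fell from 141.4 ± 5.65 to 126.6 ± 2.19 FPKM (-0.16, adjusted p = 0.0373). Sharpin, a binder of alpha chain tails that holds integrins inactive, fell from 11.6 ± 0.31 to 10.2 ± 0.17 FPKM (-0.18, adjusted p = 0.0373). Dok1, which competes with talin at beta chain tails, fell from 44.2 ± 1.38 to 38.1 ± 2.62 FPKM (-0.21, adjusted p = 0.0457). Leaving out libraries, Fermt3 was called only without NC replicate 1 (0.0314, otherwise 0.0682 to 0.122), Dok1 only without NSUN2-KO replicate 3 (0.0163, otherwise 0.0661 to 0.146) and Sharpin in no such fit (0.0521 to 0.142). With the dependence on GC content and length removed none of these 3 was called, at log2 fold changes of -0.08 for Fermt3 (adjusted p = 0.0758), -0.14 for Dok1 (0.106) and -0.11 for Sharpin (0.129). Cytip and Thbs1 kept their calls in all 17 other fits.

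Adhesion signalling and actin linker genes had 27 of 35 tested, with 0 called higher and 1 lower, and a median log2 fold change of -0.05. The share called was 3.7%, against 8.49% of all tested genes. Zyx, the focal adhesion protein zyxin, fell from 32.7 ± 2.20 to 26.2 ± 0.43 FPKM (-0.31, adjusted p = 0.0111, limma). Its call was lost without NC replicate 3 (0.0508) or NSUN2-KO replicate 1 (0.0539). Of the other 26, the kinases Fgr (-0.32, adjusted p = 0.0626) and Ptk2 (0.22, adjusted p = 0.103) and the adaptors Crk (0.12, adjusted p = 0.0559) and Git1 (-0.19, adjusted p = 0.0650) had the smallest p-values. The groups lay apart for 12 of the 27, 2 with NSUN2-KO higher and 10 lower, against 31.1% of all tested genes in either direction.

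**Figure D5:**
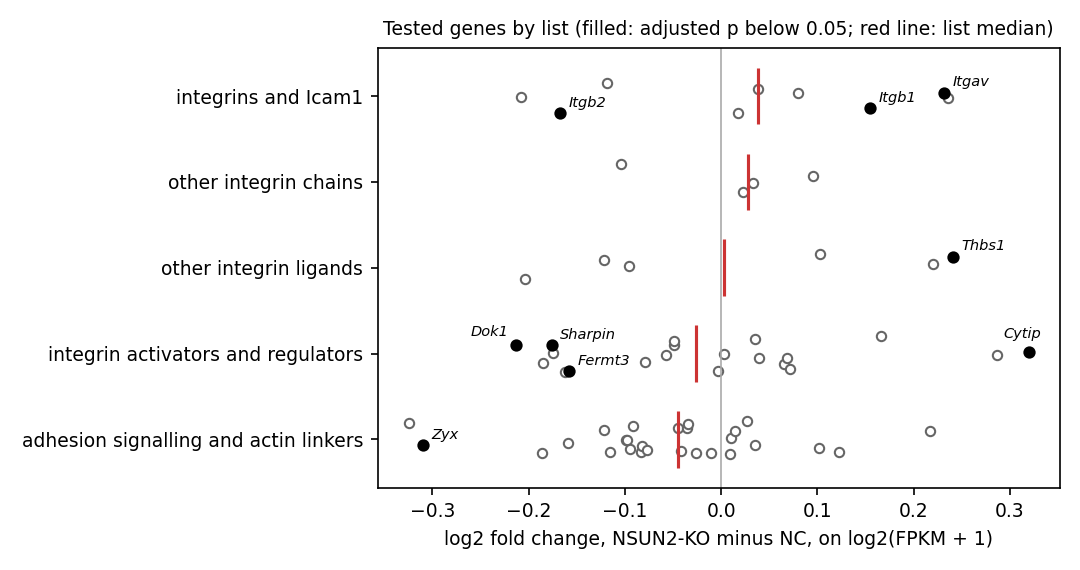
Log2 fold change (NSUN2-KO minus NC) of each tested gene of the 5 groups of genes described, filled where the adjusted p was below 0.05, with a red line at each group's median. Called genes lie on both sides of 0 among the integrins and the activators, and medians run from 0.04 to -0.05.

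Cell type markers were set beside these values. Of 9 macrophage markers 1 was called higher and 4 lower, 55.6% called against 8.49% of all tested genes. Cd14, the LPS co-receptor, rose from 205.5 ± 3.32 to 251.2 ± 1.87 FPKM (adjusted p = 0.00113, limma), and Lyz2, lysozyme, fell from 1736 ± 31.2 to 1163 ± 47.1 FPKM (adjusted p = 0.000282). Cd68 (-0.20) and Fcgr1 (-0.12) were among the others that fell, and leaving out NC replicate 2, NC replicate 3 or NSUN2-KO replicate 1 left 2 of the 9 called. Adgre1, which encodes F4/80, was at 645.3 ± 12.9 and 691.8 ± 21.2 FPKM (adjusted p = 0.108) and Csf1r at 190.6 ± 3.45 and 193.3 ± 5.96 FPKM (adjusted p = 0.752). Neutrophil markers had 4 of 11 tested, 0 higher and 2 lower: S100a9 (28.9 ± 2.33 to 22.4 ± 2.28 FPKM) and Csf3r (29.4 ± 0.80 to 20.5 ± 0.32 FPKM). Csf3r kept its call in all 17 other fits and S100a9 in 9. Their sum was 74.0 to 81.3 in NC and 59.6 to 63.6 FPKM in NSUN2-KO, with Elane and Retnlg at 0 in every library. Of the other neutrophil genes S100a8 was at 15.2 to 18.9 FPKM, Camp at 0.853 to 1.55 FPKM and Ngp at 0.676 to 1.40 FPKM over the 6 libraries, and Ltf, Cxcr2, Ly6g and Mpo at no more than 0.317 FPKM. Dendritic cell markers summed to 5.79 to 6.90 FPKM and 9.08 to 10.3 FPKM, with Ccr7 called higher (but not without NSUN2-KO replicate 1, adjusted p = 0.0600, or with no filter, 0.0884). Xcr1 was at 2.41 ± 0.19 and 3.21 ± 0.43 FPKM (adjusted p = 0.0768), and Flt3 was listed at 0 in each NC library and at no more than 0.0323 FPKM in NSUN2-KO. Platelet and megakaryocyte markers, of cells known for β3, summed to 122.2 to 130.6 FPKM and 114.6 to 124.6 FPKM with 0 of 2 tested called and Gp1bb at 0. Fibroblast and stromal markers summed to 1.62 to 1.72 FPKM and 0.754 to 1.04 FPKM with 0 of 8 tested. Within that list Col1a1 and Col1a2 were lower in every NSUN2-KO library, while Dcn was higher in each (0.0437 to 0.191 in NC, 0.260 to 0.337 FPKM in NSUN2-KO). Endothelial markers summed to 9.32 to 10.2 FPKM and 9.76 to 10.6 FPKM with 0 of 3 tested called and Emcn and Cldn5 at 0. The part of these differences in the integrin values was not tested.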

How the data were processed

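Per the labels' protocols, RNA was isolated with TRIzol and libraries came from a commercial kit. The deposited table gives FPKM values and gene lengths for 6 libraries, each column matched to a sample by title. Per the submitters' processing notes the authors' tools were DESeq2 1.20.0, featureCounts 1.5.0-p3, HISAT2 2.0.5, fastp and CASAVA 1.8, and the build was GRCm38 (mm10). Tool roles, annotation release and strand setting were not given in the sources used here, nor was the strain. The series' text names 3 replicates per group and in another place fewer.

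The limma test (version 3.58.1, R 4.3.3) used log2(FPKM + 1), pseudocount 1, and a mean-variance trend, over the 9443 genes averaging 1 FPKM or more. P-values were adjusted by Benjamini-Hochberg over all tested genes, with a threshold of 0.05, and log2 fold changes on this scale understate the change of low genes. The test was checked on simulated data, with planted changes larger than those of the integrin genes called here, so the check does not cover changes this small. FPKM times gene length gave whole reads for all values above 0 (tolerance 0.01 reads). Shares were compared by exact two-sided permutation tests over libraries (Python 3.11.15, pandas 2.3.3, scipy 1.17.1, matplotlib 3.10.9). GC content came from annotated transcripts, with values for 9433 of the tested genes (99.9%). Reads carry no molecular identifiers and so are not independent molecules.

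Members and lists were chosen with earlier results of these data known. Named genes are the 10 genes, Nsun2, other integrin chains of at least 1 FPKM, the 5 tested genes of smallest unadjusted p of each other list, the 2 most similar genes of each called one, and markers. A few genes under this rule are not reported here. Ratios and overlapping or sex-linked genes were chosen after their values were seen. Alternatives were pseudocounts of 0.1 and 5, no filter, a filter at 5 FPKM, no trend, median-ratio and TPM scaling, limma voom on recovered reads, a replicate block, protein-coding genes only, removal of GC and length trends (loess, span 0.5), and leaving out each library.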

Additional observations from a re-analysis of the deposited data

How the results depend on the processing

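No pairing by replicate number was visible: correlations of deviations of same-numbered libraries were -0.0095, -0.030 and 0.0034. With no record of the animals, whether same-numbered libraries were paired cannot be settled from these values. With the replicate number as a block, Itgb1 (0.15, adjusted p = 0.0751) and Itgb2 (-0.17, adjusted p = 0.0589) were not called by limma, leaving 1 member called higher, 0 lower and 351 of all genes. Log2 fold changes of Itgb1 (0.15) and Itgb2 (-0.17) were the same with no filter and with no trend, where 1 member was higher, 0 lower, and 265 and 526 of all genes were called. Nsun2 (-0.51) was not called with no filter (adjusted p = 0.113). Limma voom called Itga4 (0.30) and Itgb5 (-0.24), 2 members lower and 1372 genes in all, and protein-coding genes only called Itga4 (0.24). Called ligands numbered 2 with no filter, 3 with voom and 2 with the GC trend removed. Called activators numbered 1 with no filter, no trend or the block, 2 with TPM scaling or the GC trend removed and 7 with voom. Called adhesion signalling genes numbered 0 with no filter, 3 at a mean of at least 5 FPKM, 2 with median ratios or the GC trend removed, 5 with voom and 4 among protein-coding genes. Leaving out each library gave log2 fold changes of 0.20 to 0.29 (Itga4), -0.0051 to 0.0488 (Itga5), 0.22 to 0.25 (Itgav), 0.13 to 0.17 (Itgb1), -0.19 to -0.15 (Itgb2), -0.0074 to 0.0846 (Icam1) and -0.61 to -0.44 (Nsun2). It gave 0 to 2 members higher, 0 to 1 lower, 276 to 596 genes in all, 1 to 2 activators and 0 to 2 adhesion signalling genes. Share differences ran from -0.385 to 1.89 points (Itgal), -1.69 to 0.475 (Itgam), -0.00056 to 0.0036 (Itgad) and -0.097 to 0.044 (Itgb3), and the last 2 also changed sign at intermediate values of -0.00013, 0.031 and 0.018. Fewer samples per fit, or more genes adjusted over with no filter, go with lost calls; for the other settings the cause was not tested. Tested members other than Itga5 and Icam1 kept their direction in every fit run. Depth limits Itgb3 and Itgax, at 155 to 297 reads per library.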

Other observations

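Col1a1, a fibroblast gene whose product is an integrin ligand, lay under the filter at 0.989, 0.918 and 0.942 in NC and 0.311, 0.308 and 0.219 FPKM in NSUN2-KO. With no filter it passed the limma test (log2 fold change -0.61, adjusted p = 0.0235), as did Col1a2 (-0.29, adjusted p = 0.0465), and both were below NC in 3 of 3 NSUN2-KO libraries. Dcn, of the same list of stromal genes, lay the other way, at 0.160, 0.191 and 0.0437 in NC and 0.260, 0.337 and 0.260 FPKM in NSUN2-KO, and did not pass (0.19, adjusted p = 0.260). Lum was listed at 0 in each NC library and in NSUN2-KO replicate 1, and at 0.0466 and 0.0435 FPKM in NSUN2-KO replicates 2 and 3. These genes were chosen after their values were seen.

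Itgb7 exceeded its partner Itga4 in every library, with a ratio of FPKM of 18.04, 19.6 and 19.6 in NC and 13.7, 15.2 and 14.5 in NSUN2-KO. The groups did not overlap, which follows from Itgb7 being lower and Itga4 higher in every NSUN2-KO library. The ratio was chosen after its values were seen.

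The gene of integrin-linked kinase, Ilk, was listed at no more than 0.0377 FPKM in any library, while Taf10, which overlaps it by 3533 bases on the opposite strand, was at up to 4.19 FPKM. How the counting treated overlapping genes was not given in the sources used here.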
